A study of Mus musculus and Homo sapiens with 10 samples.

Results

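The binding of UBF was compared between HMEC, human mammary epithelial cells made immortal with TERT, and HMLER, an isogenic derivative of HMEC. Per the labels HMLER expresses SV40 large-T, TERT and an oncogenic HRAS allele (HRASV12G), and the series' design states that it forms tumours in nude mice. TERT is thus shared by both lines, and large-T and HRASV12G set HMLER apart. Both were grown in the same HuMEC medium, equal numbers of exponentially growing cells went into each chromatin immunoprecipitation followed by sequencing (ChIP-seq), and the antibody was the same rabbit polyclonal against UBF1/2. The members are the UBF peaks of both lines on the numbered chromosomes (1 to 22), chosen by position alone: 9387 of the 9478 peaks deposited for HMEC and 31599 of the 32274 deposited for HMLER, from 2 of the 10 samples of the series. Each line is represented by 1 list, so there is no replicate error, no test between the lines was made, and every value describes these lists. The lists hold positions only, so the epithelial identity of the lines could not be checked against marker genes.

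UBF, the product of the UBTF gene, is a DNA-binding protein with several HMG boxes that bends and loops DNA. It is best known on the repeated ribosomal RNA genes, where it keeps the chromatin open and helps RNA polymerase I (Pol I) to start and to leave the promoter. UBF is phosphorylated by the ERK kinases, which act below RAS. The ribosomal RNA gene arrays lie on the short arms of the acrocentric chromosomes and are largely missing from the assembled chromosomes of hg19, the human build named in the submitters' processing notes. The peaks below are those of the assembled numbered chromosomes, and whether any lie in ribosomal RNA gene copies there was not checked. They are identified by hg19 position, as no hg19 annotation or sequence was used here.

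For each HMEC peak there were 3.37 HMLER peaks (95% interval 3.29 to 3.45, exact binomial, counting error only). The HMLER list covered 37.5 Mb against 5.19 Mb, a ratio of 7.22. The median peak was 470 bp wide in HMEC (quartiles 373 and 625) and 983 bp in HMLER (684 and 1510). At least 1 bp of overlap with an HMLER peak was found for 5345 HMEC peaks, 56.9% of their list (55.9 to 57.9). In the other direction 4692 HMLER peaks overlapped HMEC, 14.8% of the longer list. The HMLER list thus held most of the HMEC sites and 26907 further peaks. Depth, peak caller and threshold are unknown for both lists, so a longer list cannot be told apart from a more permissive call. As a second list from HMEC, Pol I held 8983 peaks on the same chromosomes, with a median width of 290 bp.

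The excess of HMLER peaks was uneven over the chromosomes. Chromosome 19 stood highest, with 313 HMEC and 1858 HMLER peaks, a ratio of 5.94 (5.26 to 6.71). Chromosome 17 followed with 482 and 2238 peaks (4.64, 4.21 to 5.13) and chromosome 22 with 157 and 694 (4.42, 3.71 to 5.29). These 3 chromosomes held from 21.0 to 32.0 HMLER peaks per 1-Mb bin with any peak, the highest densities of the 22. At the other end chromosome 4 had 406 and 849 peaks (2.09, 1.86 to 2.36), chromosome 2 had 746 and 1795 (2.41, 2.21 to 2.62), and chromosome 10 had 655 and 1607 (2.45, 2.24 to 2.69). The highest ratio was 2.84 times the lowest. In all, 6 chromosomes (11, 15, 17, 19, 20 and 22) had an interval wholly above the whole-list ratio and 6 (2, 4, 6, 10, 13 and 18) an interval wholly below it, while 10 spanned it.

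By peaks per chromosome the HMEC list was spread much like Pol I of the same line. Correlations did not all put Pol I closer than HMLER. For peaks per bin over the 22 chromosomes, HMEC UBF had a Spearman correlation of 0.85 with Pol I and 0.87 with HMLER UBF. The Pearson correlations were 0.93 and 0.87. Over the 2451 bins with a UBF peak of either line the Spearman correlations were 0.57 and 0.76. UBF peaks per Pol I peak in HMEC ran from 0.882 on chromosome 18 to 1.66 on chromosome 21, and the other 20 chromosomes lay between 0.946 and 1.21. Chromosome 19 held 3.33% of HMEC UBF peaks and 3.42% of HMEC Pol I peaks, but 5.88% of HMLER UBF peaks. Chromosome 4 held 4.33%, 4.76% and 2.69%. The density of HMLER peaks ran from 4.77 per bin on chromosome 4 to 32.0 on chromosome 19, a wider range than the 2.26 (chromosome 18) to 6.18 (chromosome 17) of HMEC.

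The share of HMEC peaks found again followed the ratio only loosely. The Spearman correlation was 0.52 over the 22 chromosomes, a description, since the chromosomes share both lists and the HMEC count enters both measures. On chromosome 19 the share overlapped by HMLER was 58.1% (52.5 to 63.7), close to the 56.9% of the whole list, although HMLER had the most peaks there for each HMEC peak. Chromosome 3 had the highest share, 65.0% (60.8 to 69.0), at a ratio of 3.49. Chromosome 21 had the lowest, 43 of 111 peaks or 38.7% (29.6 to 48.5), and its HMEC peaks were the widest, with a median of 604 bp. Chromosome 20 combined a high ratio of 4.13 with a low share of 49.6% (43.7 to 55.6).

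**Figure D1:**
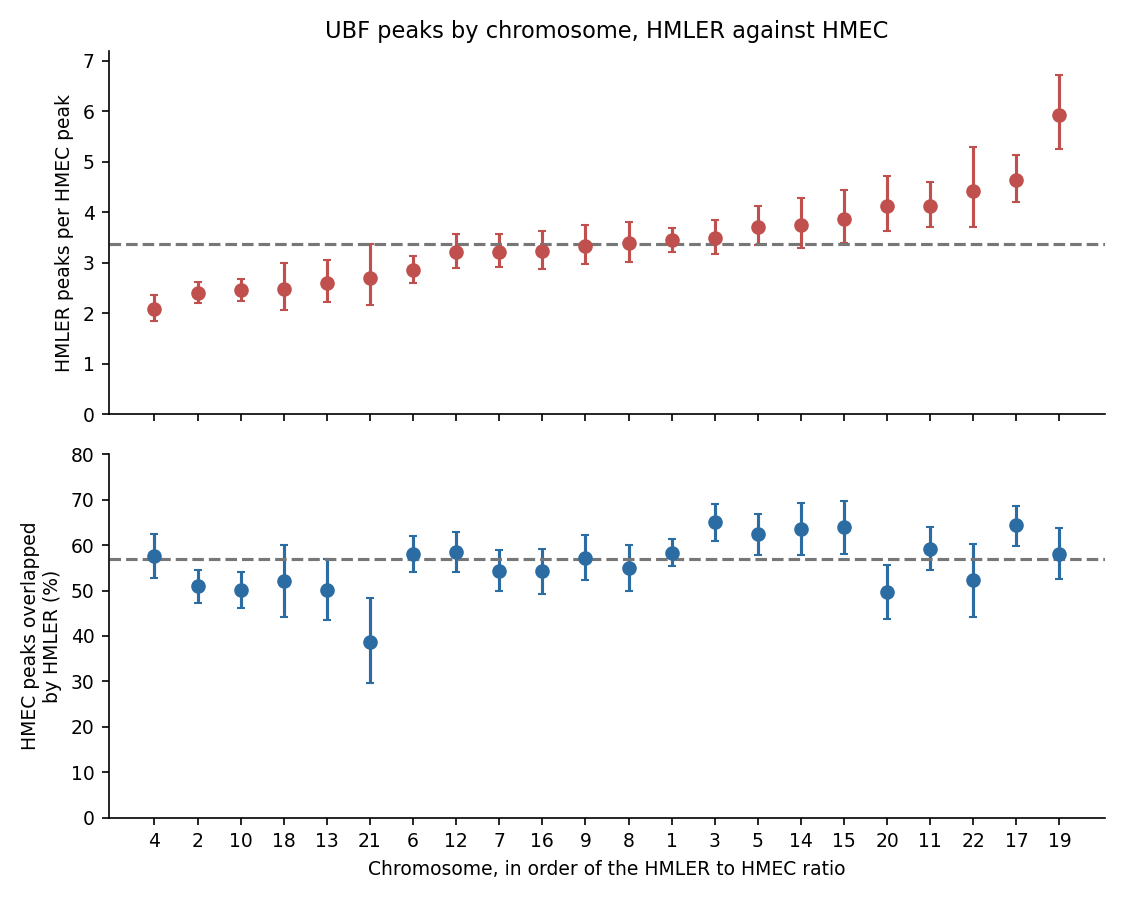
Upper panel, HMLER UBF peaks per HMEC UBF peak on each of 22 chromosomes. Lower panel, percentage of HMEC peaks that an HMLER peak overlaps by at least 1 bp, in the same order. Points are the values of 1 list per line, bars are exact 95% binomial intervals that cover counting error only, and dashed lines are the whole-list values (3.37 and 56.9%). The ratio runs from 2.09 on chromosome 4 to 5.94 on chromosome 19, and the share in the lower panel follows it only loosely.

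In fixed bins of 1 Mb, counted from the start of each chromosome with peaks assigned by their centre, most occupied bins held both lists. Of the 2451 bins with a UBF peak of either line, 1964 (80.1%, 78.5 to 81.7) held both. These were 97.7% of the 2010 bins with an HMEC peak and 81.7% of the 2405 bins with an HMLER peak. HMLER thus had a peak in 2405 of the 2451 bins counted, and bins with neither list were left out. With so few counted bins free of HMLER, high shares follow in advance and do not measure how alike the lines were. Over all these bins the median was 3 HMEC peaks (quartiles 1 and 6) and 8 HMLER peaks (3 and 17). The counts rose together, with a Spearman rank correlation of 0.76 over the 2451 bins, given as a description because bins share their library and their gene and base content.

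The additional HMLER peaks, like the HMLER list as a whole, mostly fell in bins with an HMEC peak. Of the 26907 HMLER peaks outside HMEC peaks, 25471 (94.7%) lay in a bin with an HMEC peak. Of the whole HMLER list all but 4.55% lay in such bins. The additional peaks made up 85.2% of that list and its other peaks overlap an HMEC peak. The closeness of the 2 shares therefore follows from how the groups are made. Bins with an HMEC peak made up 81.7% of the 2405 bins with an HMLER peak. The 441 bins with HMLER alone held 1437 peaks, 4.55% of the HMLER list, at a mean of 3.26 per bin. The 46 bins with HMEC alone held 67 HMEC peaks, and 34 of these bins had a single peak. The mean number of HMLER peaks rose with HMEC occupancy, from 4.85 in bins with 1 HMEC peak to 8.79 in bins with 2 to 3, 18.9 with 4 to 9, 36.8 with 10 to 19 and 48.2 with 20 or more. The ratio of HMLER to HMEC peaks fell along the same classes, from 4.85 through 3.57, 3.22 and 2.99 to 1.85. The classes were cut on the HMEC count, which is also the denominator of that ratio.

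HMEC had more peaks than HMLER in 144 bins, 5.88% of the 2451, and in 90 of these the difference was 1 peak. HMLER had more in 2171 bins (88.6%), and 136 were equal. The 5.88% depends on the length of the HMLER list: with only its 9387 widest peaks, as many as in HMEC, HMEC had more peaks in 966 of 2201 bins (43.9%). The bins named next stand out against the whole lists as deposited.

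**Figure D2:**
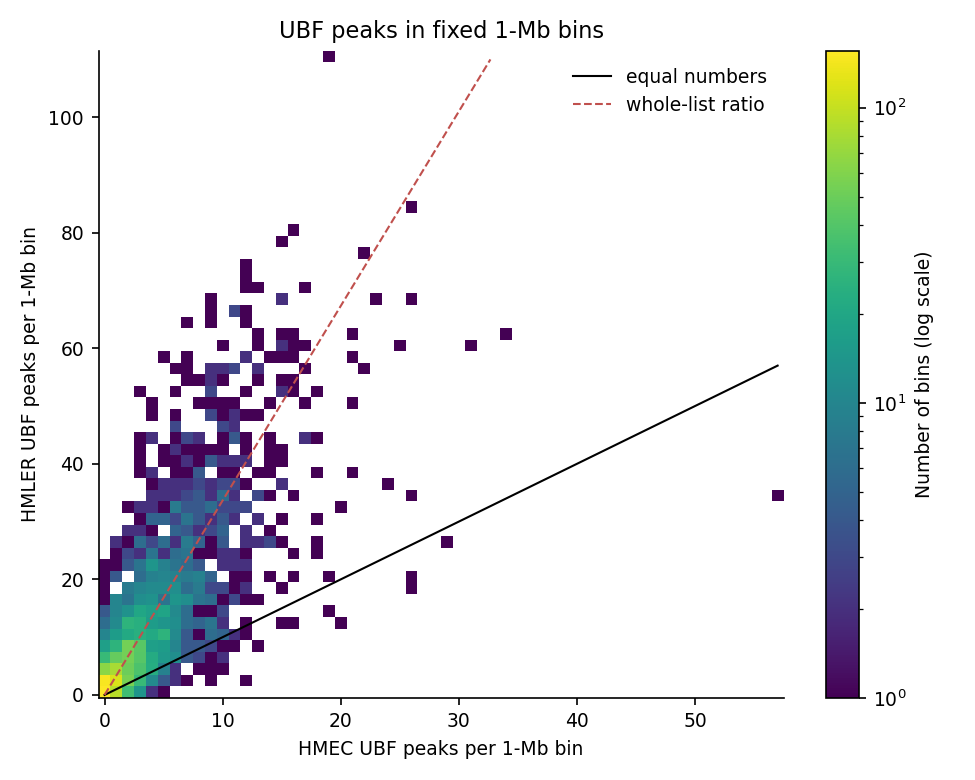
HMEC UBF peaks (horizontal) and HMLER UBF peaks (vertical, in steps of 2) per fixed 1-Mb bin, with colour for the number of bins on a log scale. The solid line marks equal numbers and the dashed line the whole-list ratio of 3.37. Most bins lie above the solid line, and the bin with 57 HMEC and 35 HMLER peaks stands alone at the right.

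The largest HMEC excess lay on chromosome 1 from 145000001 to 146000000, with 57 HMEC and 35 HMLER peaks. There 15 of the 57 HMEC peaks (26.3%) overlapped HMLER, against 56.9% in the whole list, and HMEC covered 58.8 kb against 45.7 kb in HMLER. Bins of HMEC excess were picked for few HMLER peaks relative to HMEC, so a lower share follows in part from the rule. Pol I of HMEC was also dense in this bin, with 41 peaks. Without it the share of all HMEC peaks overlapped by HMLER was 57.1%, so it carries little of the whole-list value.

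The next bins by HMEC excess, with ties going to the larger covered length, held 1 to 9 Pol I peaks each. On chromosome 20 from 59000001 to 60000000, HMEC had 12 peaks and HMLER 3, with 1 Pol I peak, and the ratio of 0.25 was the lowest among the 224 bins with at least 10 HMEC peaks. On chromosome 10 from 134000001 to 135000000, HMEC had 26 peaks, HMLER 18 and Pol I 2. These lists barely met: only 2 of the 26 HMEC peaks overlapped an HMLER peak. The same held on chromosome 10 from 47000001 to 48000000, where 2 of 20 HMEC peaks overlapped one of 12 HMLER peaks, with 7 Pol I peaks. On chromosome 6 from 170000001 to 171000000, 9 of 26 HMEC peaks overlapped one of 20 HMLER peaks, with 9 Pol I peaks.

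The ratio rule added 2 further bins with few HMLER peaks. On chromosome 10 from 125000001 to 126000000 HMEC had 10 peaks and HMLER 4 (ratio 0.40), and on chromosome 4 from 187000001 to 188000000 they had 10 and 6 (0.60). In each, 4 of the 10 HMEC peaks overlapped HMLER. The fullest bin without any HMLER peak held 5 HMEC peaks, on chromosome 12 from 126000001 to 127000000. The next held 4, on chromosome 18 from 71000001 to 72000000, and further bins held 3 each. Of those, the largest covered lengths in HMEC were on chromosome 2 from 2000001, on chromosome 12 from 130000001 and on chromosome 12 from 87000001.

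The fullest HMEC bins split by how far HMLER shared them. On chromosome 6 from 26000001 to 27000000 there were 34 HMEC and 62 HMLER peaks, and 27 of the 34 (79.4%) overlapped. On chromosome 22 from 46000001 to 47000000 there were 31 and 61, and 25 of the 31 (80.6%) overlapped. On chromosome 13 from 114000001 to 115000000 the counts were nearly equal, 29 and 27, yet only 3 HMEC peaks (10.3%) overlapped an HMLER peak. Similar numbers of peaks in a bin thus did not mean the same sites.

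The fullest HMLER bins lay on chromosomes 19, 17 and 11. Chromosome 19 from 1000001 to 2000000 held 110 HMLER peaks covering 157 kb, against 19 HMEC peaks covering 9.42 kb and 7 Pol I peaks. Chromosome 17 held 85 HMLER and 26 HMEC peaks from 79000001 to 80000000, 79 and 15 in the adjoining bin from 80000001, and 77 and 22 from 48000001 to 49000000. Chromosome 11 from 65000001 to 66000000 held 80 and 16, and 14 of those 16 HMEC peaks (87.5%) overlapped HMLER.

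Among bins with at least 10 HMEC peaks, the ratio had a median of 2.84 and reached 6.17 on chromosome 19 from 18000001 to 19000000, with 12 HMEC and 74 HMLER peaks. The next were on chromosome 14 from 105000001 (10 and 61), chromosome 17 from 1000001 (11 and 67), chromosome 1 from 156000001 (11 and 67) and chromosome 16 from 2000001 (12 and 73). In these 5 bins of highest ratio between 70.0% and 90.9% of HMEC peaks overlapped HMLER, against 56.9% of the list. The bins were picked for many HMLER peaks per HMEC peak, so a higher share follows in part from the rule. The fullest bins with no HMEC peak centre held 23 HMLER peaks on chromosome 11 from 8000001, 20 on chromosome 7 from 102000001, 19 on chromosome 5 from 173000001, 16 on chromosome 14 from 68000001 and, of several bins with 15, the one with the largest covered length on chromosome 1 from 210000001. Pol I of HMEC was present in all 5, with 3 to 10 peaks, so these stretches were not empty of peaks in HMEC.

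HMEC peaks near the far ends of the chromosomes were found again in HMLER less often than elsewhere. This comparison was made after the bins had been seen, since several bins of HMEC excess lay near an end. The end was taken as the last peak of any of the 3 human lists. Within 5 Mb of it lay 980 HMEC peaks, of which 367 (37.4%, 34.4 to 40.6) overlapped HMLER, against 4978 of 8407 (59.2%, 58.2 to 60.3) farther away. The share rose with distance, from 31.8% (26.3 to 37.6) in the last 1 Mb to 46.0% (41.7 to 50.4) at 5 to 10 Mb, 52.9% at 10 to 20 Mb and 61.6% (59.5 to 63.7) at 20 to 50 Mb.

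The lower share was seen on 19 of 22 chromosomes. It was higher at the end only on chromosomes 1 (13 of 18 peaks), 5 (32 of 41) and 22 (29 of 45). On chromosome 10 only 3 of 41 peaks within 5 Mb of the end overlapped HMLER, on chromosome 12 only 5 of 36, and on chromosome 16 only 21 of 90. Leaving out 4 of the bins named above (on chromosomes 6, 10, 13 and 20) gave 39.6% (36.3 to 42.9).

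The HMEC peaks near the ends were wider than the rest, with a median of 533 bp against 464 bp. The gap between the ends and the rest was largest for the widest HMEC peaks. Of those from 626 to 3899 bp, 31.2% (26.4 to 36.4) of 349 near an end overlapped HMLER, against 68.8% (66.7 to 70.9) of 1995 elsewhere. Of those from 177 to 373 bp, 34.5% (27.4 to 42.2) of 168 did, against 40.3% (38.2 to 42.4) of 2193, with overlapping intervals.

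The last 5 Mb also took a larger part of the HMEC list than of the others. They held 10.4% of HMEC UBF peaks, 7.69% of HMLER UBF peaks and 5.58% of HMEC Pol I peaks. The ratio of HMLER to HMEC peaks was 2.48 (2.30 to 2.67) there and 3.47 (3.39 to 3.56) elsewhere. At the other end, 278 of the 561 HMEC peaks in the first 5 Mb of a chromosome (49.6%, 45.3 to 53.8) overlapped HMLER, and 59.9% (58.8 to 61.0) of the 7846 in neither end. What sets the ends apart was not tested.

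**Figure D3:**
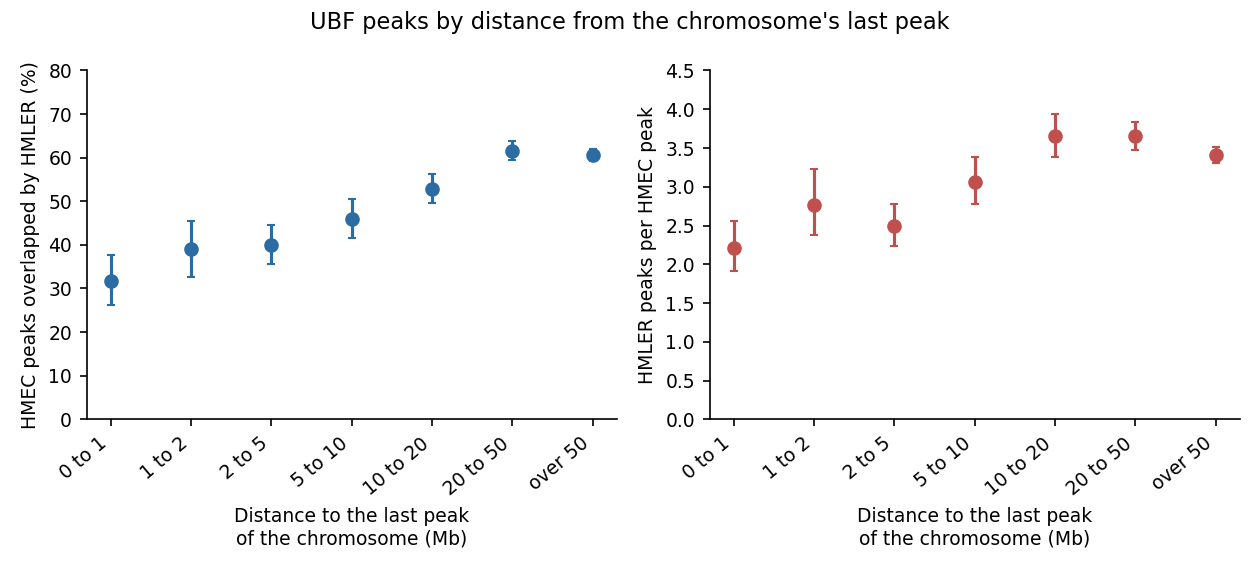
Percentage of HMEC UBF peaks overlapped by HMLER (left) and HMLER peaks per HMEC peak (right) by distance from the last peak of the chromosome, over 22 chromosomes. Bars are exact 95% binomial intervals for counting error only. The share rises from 31.8% in the last 1 Mb to 61.6% at 20 to 50 Mb.

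Neighbouring peaks lay closer together in HMLER. The median gap from the end of a peak to the start of the next was 92.2 kb in HMEC (interval 88.5 to 96.5, order statistics), 21.97 kb in HMLER (21.4 to 22.5) and 141 kb for HMEC Pol I (136 to 148). The quartiles were 23.6 and 268 kb in HMEC and 5.63 and 66.0 kb in HMLER. By chromosome the median gap ran from 54.6 kb (chromosome 10) to 150 kb (chromosome 4) in HMEC, and from 11.0 kb (chromosome 17) to 73.2 kb (chromosome 4) in HMLER. A list with more peaks has shorter gaps, and the 9387 widest HMLER peaks had a median gap of 83.8 kb, near that of HMEC.

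The shortest gaps differed less between the lines than the rest. Gaps up to 500 bp made up 6.55% of HMEC gaps (6.05 to 7.07) and 7.33% of HMLER gaps (7.05 to 7.62), and gaps up to 10 kb 17.1% (16.3 to 17.9) and 34.1% (33.5 to 34.6). Gaps up to 1 kb were 8.69% of HMEC gaps (8.13 to 9.28), 10.3% of HMLER gaps (9.94 to 10.6) and 2.53% of HMEC Pol I gaps. Between the 9387 widest HMLER peaks gaps up to 1 kb were 2.49% and gaps up to 10 kb 12.2%. Choosing peaks by width, however, also removes the narrow neighbours of wide ones. In both UBF lists the smallest gap was 2 bp and no peaks overlapped within a list, so peaks a few bp apart had been left separate in the deposited lists.

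**Figure D4:**
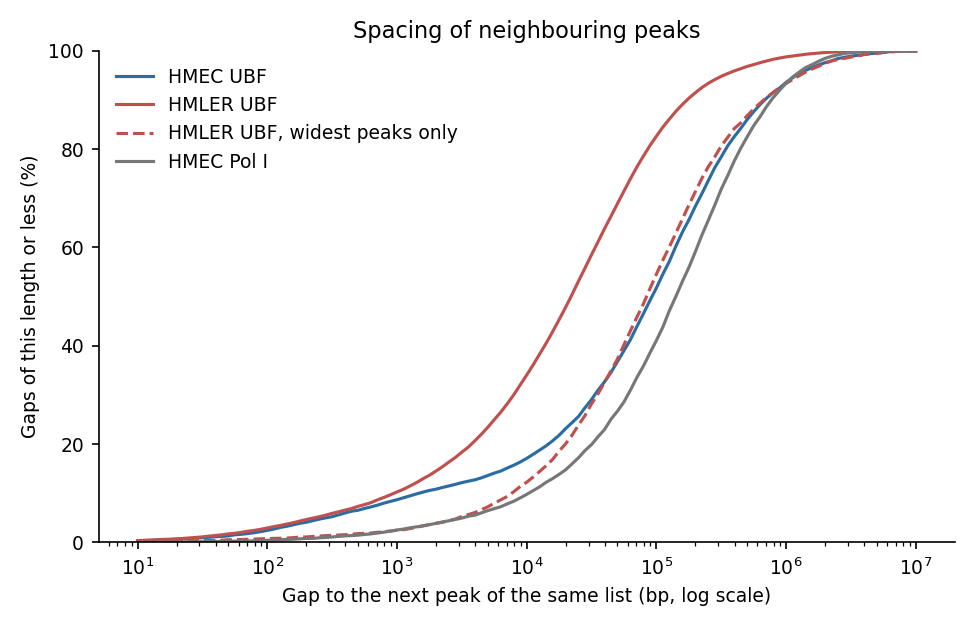
Percentage of gaps between neighbouring peaks that are at most the length on the horizontal axis (bp, log scale), for HMEC UBF, HMLER UBF, the 9387 widest HMLER peaks and HMEC Pol I. The HMLER curve lies to the left with a median gap of 21.97 kb against 92.2 kb, and the curve of the widest HMLER peaks lies near that of HMEC at the median (83.8 kb) and below it at 1 kb (2.49% against 8.69%).

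Joining peaks separated by at most 10 kb gave runs of peaks. In HMEC 1185 runs of 2 or more peaks held 2786 peaks (29.7% of the list, 28.8 to 30.6), and in HMLER 5715 runs held 16467 peaks (52.1%, 51.6 to 52.7). Runs of 10 or more numbered 5 in HMEC and 65 in HMLER. A list with more peaks has more gaps of at most 10 kb, so these counts depend on list length. Between the 9387 widest HMLER peaks 12.2% of gaps were up to 10 kb, below the 17.1% of HMEC. HMEC peaks that stood alone overlapped HMLER at 52.6% (51.4 to 53.9), those in pairs at 67.1% (64.9 to 69.2) and those in runs of 3 to 4 at 71.1% (67.5 to 74.5). The 151 peaks in runs of 5 to 8 overlapped at 51.7% (43.4 to 59.9), and the 69 in the 5 runs of 10 to 20 at 63.8% (51.3 to 75.01).

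The 5 fullest HMEC runs were of opposite kinds. On chromosome 1 a run of 20 HMEC peaks from 145014681 to 145086115 met 4 HMLER peaks, and 5 of the 20 were shared. It had 28.0 kb covered in HMEC and 6.24 kb in HMLER. A neighbouring run of 12 from 145103461 to 145140224 met 2 HMLER peaks, and 2 of its 12 peaks were shared. The other 3 runs were found whole in HMLER.

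In those 3 runs every HMEC peak overlapped HMLER. On chromosome 22 from 46448435 to 46484886 all 17 HMEC peaks were met by 9 of 14 HMLER peaks. There 13.9 kb was covered in HMEC and 28.6 kb in HMLER. On chromosome 7 from 27135928 to 27163213 all 10 were met by 5 of 12 (6.48 and 21.7 kb). On chromosome 6 from 27774802 to 27806999 all 10 were met by the 7 HMLER peaks (5.83 and 9.98 kb). Each of these runs thus covered more DNA in HMLER than in HMEC.

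The fullest HMLER runs extended over longer stretches. The run with most peaks, 29 on chromosome 7 from 27134817 to 27245272 (110 kb), contains the HMEC run of that chromosome, and 16 of the 17 HMEC peaks within it overlapped HMLER. A run of 28 HMLER peaks on chromosome 11 from 63991405 to 64127489 held 4 HMEC peaks, with 41.2 kb covered in HMLER and 1.63 kb in HMEC. The next were 18 peaks on chromosome 22 from 46422932 to 46485027, with 19 HMEC peaks, 17 on chromosome 10 from 102746240 to 102828020, with 4, and, of several runs with 16, the one with the largest covered length on chromosome 8 from 21960678 to 22049118, with 2. In the runs of chromosomes 10 and 8 every HMEC peak overlapped HMLER.

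Most HMEC peaks without an overlap lay within 100 kb of an HMLER peak. The median distance from the 4042 such peaks to the closest HMLER peak was 16.4 kb (15.3 to 17.4), and 382 (9.45%) lay within 1 kb, 1594 (39.4%) within 10 kb and 3544 (87.7%) within 100 kb. From the 26907 HMLER peaks outside HMEC the median distance to an HMEC peak was 50.3 kb (49.1 to 51.4), with 2.93% within 1 kb and 16.9% within 10 kb. The distances depend on the number of peaks in the list that is searched.

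At shared sites the HMLER interval was wider than the HMEC peak in nearly all cases. Over the 5345 shared HMEC peaks, taking the HMLER peak with the longest overlap, the HMLER interval had a median width of 1869 bp (interval 1842 to 1901, quartiles 1329 and 2538) against 502 bp (497 to 507) for the HMEC peak itself. The HMLER interval was wider at 5273 of them (98.7%, 98.3 to 98.9) and narrower at 72. The median ratio of widths was 3.47 (3.41 to 3.54, quartiles 2.39 and 5.09), and the ratio was at least 5 at 1387 peaks (25.9%) and at least 10 at 174 (3.26%).

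The HMEC peak usually lay inside the HMLER interval, though not always at its middle. It was contained whole in 4624 cases (86.5%, 85.6 to 87.4), reached partly outside in 702 (13.1%), and enclosed the HMLER interval in 19. Over all shared peaks the HMEC centre lay between 0.339 and 0.665 of the way along the HMLER interval at the quartiles. The centres were 292 bp apart at the median (280.5 to 302.5).

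The width of the HMLER interval depended little on the width of the HMEC peak. In the narrowest of 10 groups of shared HMEC peaks (197 to 342 bp) the HMLER interval had a median of 1716 bp (1635 to 1829), and in the fifth (462 to 502 bp) 1724 bp (1668 to 1821). It was 2024 bp (1939 to 2089) in the ninth group (706 to 883 bp) and 2309 bp (2219 to 2382) in the widest (884 to 3814 bp). The HMEC median rose from 320 to 1073 bp over the 10 groups while the HMLER median rose from 1716 to 2309 bp, and the ratio fell from 5.59 to 2.06. The Spearman correlation of the widths was 0.17 over the 5345 pairs, given as a description since peaks under 1 interval share it.

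**Figure D5:**
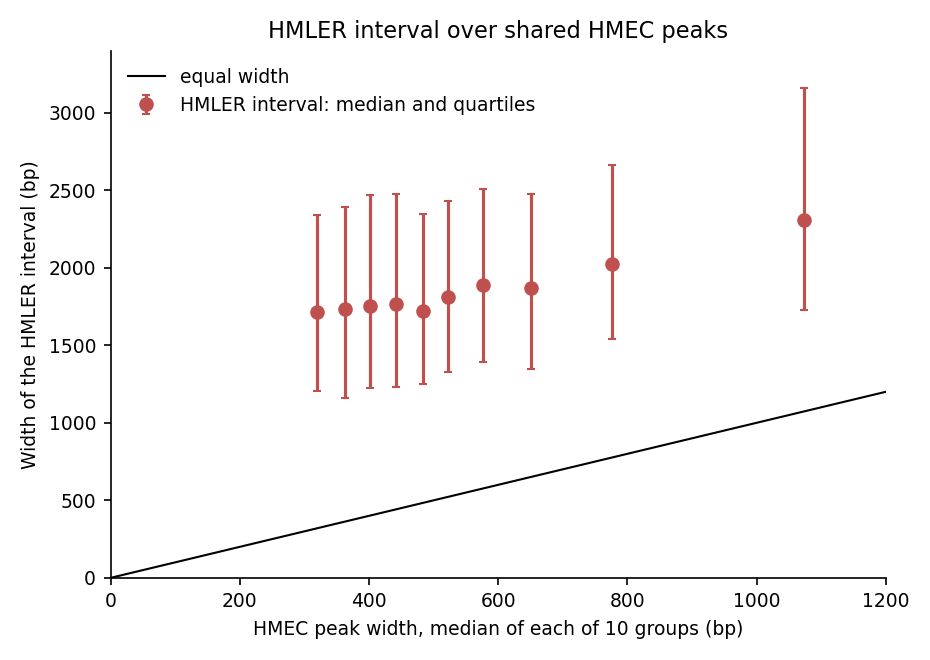
Width of the HMLER UBF interval over shared HMEC UBF peaks (vertical, median with quartiles as bars) against the median HMEC width of 10 groups of peaks of nearly equal number (horizontal). The line marks equal width. All 10 medians lie above it, between 1716 and 2309 bp.

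HMLER intervals that held several HMEC peaks were wider than those with 1. This order follows in part from geometry, since such an interval must span the gaps between its peaks and a wider interval can meet more peaks. Of the HMLER peaks, 26907 held no HMEC peak (median width 900 bp), 4101 held 1 (1666 bp, 1640 to 1699), 518 held 2 (2562 bp, 2476 to 2688), 62 held 3 (3597 bp, 3260 to 4180) and 11 held 4 to 6 (5882 bp). With 1 HMEC peak 30.7% of the interval was covered by it at the median, and with 3 peaks 48.5%. The added width in HMLER was thus not made up of HMEC peaks alone.

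The widest HMLER interval held the most HMEC peaks. It ran on chromosome 7 from 5457780 to 5470237 (12457 bp) and met 6 HMEC peaks of 500 to 1532 bp, which covered 42.0% of it. The interval of 9597 bp on chromosome 6, from 10411108 to 10420705, met 5 HMEC peaks of 484 to 1364 bp, and on chromosome 22 that from 46464703 to 46471088 (6385 bp) met 5 that covered 61.3%. A second interval of chromosome 7, from 5565027 to 5571694, was 6667 bp wide and met 4 HMEC peaks. So did an interval of 6006 bp on chromosome 17, from 79315087 to 79321093.

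Wide intervals with few HMEC peaks were also found. On chromosome 19 from 39896981 to 39905235 the HMLER interval of 8254 bp met a single HMEC peak of 415 bp, which covered 5.03% of it. On chromosome 14 from 69255160 to 69263290 an interval of 8130 bp met 2 HMEC peaks, of 485 and 711 bp. On chromosome 8 from 145009487 to 145017808 an interval of 8321 bp met 3, of 745 to 959 bp.

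Close neighbours in HMEC often lay under the same HMLER interval. Of 229 neighbouring HMEC pairs with a gap of up to 100 bp, 171 (74.7%, 68.5 to 80.2) had both peaks under 1 HMLER interval, and of 384 pairs with a gap of 101 to 500 bp, 292 (76.0%, 71.5 to 80.2) did. The share was 58.2% of 201 pairs at 501 to 1000 bp, 38.0% of 200 at 1001 to 2000 bp and 13 of 260 pairs at 2001 to 5000 bp. None of 327 pairs at 5001 to 10000 bp did (exact upper bound 1.12%). A pair cannot lie under an interval narrower than its gap, so the fall with gap length follows in part from the interval widths. Joining the HMEC peaks under each HMLER interval into 1 span left the HMLER interval 2.83 times as wide as the span at the median. Of the HMLER peaks, 4101 held 1 HMEC peak, where joining changes nothing, and 591 held 2 or more. The 2.83 therefore mainly describes intervals with 1 HMEC peak, and those with several were not measured apart.

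The share of HMEC peaks that met HMLER varied with its width and its neighbours. It rose from 39.9% (37.9 to 41.9) of peaks of 177 to 373 bp to 57.3% of those of 374 to 470 bp and 67.5% (65.5 to 69.4) of those of 471 to 625 bp, and was 63.2% (61.2 to 65.2) of those of 626 to 3899 bp. Peaks with another HMEC peak within 1000 bp were met at 78.4% (76.2 to 80.4), above the 51.8% to 54.2% of peaks whose nearest neighbour lay at any of the greater distances up to 1000000 bp. Those close neighbours were somewhat wider, with a median of 509 bp against 458 to 475 bp, and often share 1 HMLER interval, as given above.

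The share rose most with the number of HMLER peaks in the bin for narrow HMEC peaks. Among the narrowest, 19.03% (14.3 to 24.5) were met in bins with 0 to 4 HMLER peaks and 59.6% (54.7 to 64.5) in bins with 40 or more. Among those of 471 to 625 bp the shares were 64.6% (57.6 to 71.3) and 72.0% (67.6 to 76.1), with overlapping intervals. Among the widest HMEC peaks they were 62.8% (56.0 to 69.3) and 67.8% (63.2 to 72.2), also overlapping, with 55.6% (51.9 to 59.3) in bins with 20 to 39. The lowest class is partly fixed in advance. It includes 46 bins without an HMLER peak, where none of the 67 HMEC peaks was met. Over all widths 46.3% were met in bins with 0 to 4 HMLER peaks and 50.1% in bins with 1 to 4. The HMLER count of a bin also includes the peaks that make the overlap. A denser HMLER list leaves less room between its peaks, and how much of these shares is coincidental overlap was not tested.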

How the data were processed

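Per the labels' protocols, ChIP libraries were made with an Illumina kit. The authors deposited 1 peak list per antibody and line, with 3 columns per the file headers (chromosome, peak start, peak end). The submitters' processing notes name CASAVA 1.8.2, BWA, Picard and hg19. How peaks were called, at which threshold and depth, with which filters and input, and whether coordinates count from 0 or from 1: none of this is given in the sources used here. No peak score was used, as the lists hold none.

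Lines were split at carriage returns, and X, Y and contigs were left out. Width is end minus start. Overlaps, bins, gaps and runs were computed in Python 3.11.15 with numpy 2.4.6, pandas 2.3.3 and scipy 1.17.1, and the code was tested on simulated lists. Intervals are 95% exact binomial intervals over peaks (for a ratio of counts, transformed from the share; for a median, order statistics). Peaks are not replicates, so these intervals hold for counting error alone.

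Named regions followed a rule: the 5 fullest bins of each list, the 5 of largest HMEC excess, the 5 fullest with 1 list alone, the 5 lowest and 5 highest ratios among bins with at least 10 HMEC peaks, 3 chromosomes at each extreme, the 5 fullest and 5 widest HMLER intervals over HMEC peaks, and the 5 fullest runs of each list, ties going to the larger covered length. The members and rules were chosen with earlier results of these data known. Mouse lists were not used here. The alternatives were other bins, overlaps, merging, X, and shorter lists.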

Additional observations from a re-analysis of the deposited data

How the results depend on the processing

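No paired analysis was possible because each line has 1 list and no replicate numbers, and for the same reason no list could be left out. The peak count ratio of 3.37 stayed within its interval with X and with peaks merged across gaps of 500 bp. Keeping the wider 50% of each list cannot move it. The covered length ratio of 7.22 became 7.29 with X and 7.85 with the wider 50%. The share of HMEC peaks overlapped (56.9%) was 54.6% with 50% of the peak covered, 54.6% with centres within 1000 bp, 60.8% with the wider 50% of each list and 41.5% when only as many of the widest HMLER peaks as in HMEC were kept. That reduction raised the bins with more HMEC peaks from 144 to 966, and no other bin setting moved it by over 1.5 times. The share of bins with both lists was 69.4% at 500 kb and 91.1% at 2 Mb. The highest over lowest chromosome ratio was 2.88 by covered length, 2.65 with the wider 50% and 2.77 with the reduced HMLER list, where chromosome 19 was still highest (1.79) and chromosome 2 (0.645), not chromosome 4 (0.690), was lowest. The median gap was 106 kb in HMEC and 25.6 kb in HMLER after merging, 23.2 kb in HMLER between centres, and 83.8 kb in the reduced HMLER list. The HMLER interval was 1903 bp with 50% of the HMEC peak covered and 1764.5 bp counted once, and the width ratio was 2.83 with HMEC peaks joined.

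Chosen after seeing the data were the 2.77 and the ratios of chromosomes 19 and 4 above (5.73 and 2.22 with the wider 50%), the share of bins with both lists under the reduced HMLER list (79.7%), the overlapped share without the bin of chromosome 1 (57.1%) and all settings of the chromosome ends. The share near the chromosome ends (37.4%) was 35.0% within 2 Mb and 40.4% within 10 Mb. It was 35.2% against 56.9% elsewhere with 50% of the peak covered, 36.0% against 56.8% with centres within 1000 bp, and 26.5% against 43.2% with the reduced HMLER list. The unknown depth and thresholds limit every comparison of list length, width and spacing.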

Other observations

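The X chromosome, left out above, stood apart from the numbered chromosomes in HMEC. It held 87 HMEC UBF peaks (0.918% of the list), 663 HMLER UBF peaks (2.05%) and 292 HMEC Pol I peaks (3.14%). The ratio of HMLER to HMEC peaks was 7.62 (6.09 to 9.64), against 5.94 (5.26 to 6.71) on chromosome 19, the highest of the numbered chromosomes, with overlapping intervals. On X, 87 HMEC UBF peaks stood against 292 Pol I peaks. On the numbered chromosomes UBF peaks per Pol I peak ran from 0.882 to 1.66, so Pol I peaks were also more numerous on some of them, by less. Of the 87 HMEC peaks, 36 (41.4%, 30.9 to 52.4) overlapped HMLER. The lists held 4, 12 and 19 peaks on contigs or chromosome Y, in the order HMEC UBF, HMLER UBF and HMEC Pol I.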
